A study of Bos taurus with 24 samples.

Results

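The 9 genes described here carry the signal that leads from RNA in the cytosol to interferon and from interferon back to the nucleus: the RNA sensors DHX58 and IFIH1, the adaptor MAVS, the transcription factor IRF3, the interferon receptor chain IFNAR1, the kinase JAK1, and the transcription factors STAT2, IRF9 and IRF1. They were taken by symbol from a list of names, and that list was drawn up with earlier results of these data known. All 9 were found, each on 1 row, among the 11937 genes of the count table, and all 9 passed the filter on low counts, which removed no gene.

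Cells recognise double-stranded or otherwise foreign RNA in the cytosol through helicases of the RIG-I family. Bound sensors activate MAVS on the outer mitochondrial membrane, and kinases recruited there phosphorylate IRF3, which switches on interferon genes. Secreted type I interferon binds a receptor made of IFNAR1 and IFNAR2, the attached kinases JAK1 and TYK2 phosphorylate STAT2, which enters the nucleus with IRF9 in a complex that drives interferon-stimulated genes. The sensors, IRF1, STAT2 and IRF9 are themselves among the genes that interferon is known to induce in many cell types.

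The samples were wild-type bovine (Bos taurus) cells labelled as muscle satellite cells, which are the resident stem cells of muscle fibres, from the longissimus dorsi muscle of the back. Satellite cells, a pool of 3 lines at passage 3, were grown either without fibroblasts (monoculture) or with passage 10 fibroblasts in plates with 0.4 µm pores (coculture). Both kinds of cell were seeded at 8000 per cm2 in medium with 20% fetal bovine serum. RNA was taken from proliferating cells after 5 days of culture and at 24 h and 72 h after a switch to 10% horse serum, which starts differentiation, with 4 libraries in each of the 6 groups. The labels do not state whether monoculture wells held an insert, nor which animals the lines came from. They do not state that replicates are separate cultures, so the spread behind each p-value is that among these libraries and may be a technical one.

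Library totals were between 11.54 and 34.96 M counts. Lanes were named in the library names: all monoculture libraries and the proliferation coculture libraries ran in lane 6, coculture 24 h replicates 3 and 4 and all coculture 72 h libraries ran in lane 7, and coculture 24 h replicates 1 and 2 ran in lane 6. At 72 h lane and culture therefore cannot be told apart within the groups. An unexplained code in the labels was 2 in all coculture and in the proliferation monoculture libraries and 1 in the later monoculture libraries. At 24 h and 72 h this code cannot be told apart from culture. In monoculture it changes with time between proliferation and 24 h. Its part in these differences was not tested. Nuclear ribosomal RNA took at most 1.402% of counts in 20 libraries. It took 4.065% in replicate 2 of the 24 h coculture and 2.239% in replicate 1 of the 72 h coculture. In the 72 h monoculture it took 2.144% in replicate 3 and 1.763% in replicate 4. The satellite cell and myoblast transcription factors PAX7, MYF5, MYOD1 and MYOG are not among the genes listed. The table lists only genes with at least 6 counts in every library, so a gene silent in any of them is not listed. Of 15 satellite and myoblast markers 7 were listed, and of 14 fibroblast markers 11.

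Per the table, DHX58 (ENSBTAG00000046580) lies on chromosome 19 at 42237043 to 42247589, IFIH1 (ENSBTAG00000008142) on chromosome 2 at 34111531 to 34192286 and MAVS (ENSBTAG00000013545) on chromosome 13 at 51338286 to 51350832. IRF3 (ENSBTAG00000006633) lies on chromosome 18 at 56062452 to 56068031, IFNAR1 (ENSBTAG00000021819) on chromosome 1 at 2189896 to 2218344 and JAK1 (ENSBTAG00000003147) on chromosome 3 at 80444566 to 80584006. STAT2 (ENSBTAG00000004380) lies on chromosome 5 at 56995021 to 57009606, IRF9 (ENSBTAG00000005816) on chromosome 10 at 20986949 to 20991549 and IRF1 (ENSBTAG00000031231) on chromosome 7 at 21938660 to 21946679. The sources used here name no genome build for these coordinates. DHX58 overlaps KAT2A, and IRF1 overlaps the unnamed protein-coding gene ENSBTAG00000058143. Strand use in counting is not stated, so reads of overlapping genes may not be told apart.

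The sensors were higher with fibroblasts, DHX58 at every time and IFIH1 at 72 h. DHX58 encodes LGP2, a RIG-I family helicase that binds RNA and tunes the other sensors, since it lacks their signalling domain. Levels are counts scaled to a common library total (CPM) with TMM factors, which correct for differences in library composition. In monoculture, replicates 1 to 4 gave DHX58 levels of 2.79, 1.99, 2.16 and 1.86 CPM in proliferation, 2.01, 2.55, 3.26 and 3.01 CPM at 24 h, and 2.03, 1.81, 1.29 and 1.92 CPM at 72 h. In coculture they were 5.64, 5.14, 7.75 and 5.01 CPM in proliferation, 3.59, 5.09, 4.75 and 4.73 CPM at 24 h, and 7.41, 11.9, 11.1 and 9.10 CPM at 72 h. Every coculture library lay above every monoculture library of any time, and at 72 h the coculture mean was at its highest and the monoculture mean at its lowest.

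The log2 fold change of DHX58 in coculture over monoculture was 1.39 ± 0.183 (SE; edgeR adjusted p = 1.862e-07) in proliferation, 0.75 ± 0.182 (edgeR adjusted p = 0.002946) at 24 h and 2.47 ± 0.183 (edgeR adjusted p = 1.962e-12) at 72 h. By size of rise DHX58 was number 11 of all 11937 genes both in proliferation and at 72 h, and number 78 at 24 h. Because these are bulk samples, more cells with a transcript and more transcript per cell cannot be told apart here or below. The overlapping gene KAT2A, which encodes a histone acetyltransferase, had log2 fold changes of 0.41 (edgeR adjusted p = 4.454e-07), -0.02 (0.8349) and -0.13 (0.03986) at the same times. At 24 h and 72 h it thus did not rise with DHX58.

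IFIH1 encodes MDA5, the sensor of long double-stranded RNA, which signals through MAVS. Monoculture replicates 1 to 4 held IFIH1 at 3.79, 3.64, 3.48 and 2.79 CPM in proliferation, 2.51, 3.72, 3.00 and 3.01 CPM at 24 h, and 2.32, 1.41, 1.29 and 2.81 CPM at 72 h. Coculture replicates held it at 4.02, 3.72, 4.16 and 3.10 CPM in proliferation, 3.65, 3.97, 3.67 and 4.50 CPM at 24 h, and 7.52, 13.97, 10.54 and 9.15 CPM at 72 h. The cultures overlapped in proliferation and at 24 h and stood far apart at 72 h.

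The IFIH1 difference was a log2 of 2.40 ± 0.190 at 72 h (edgeR adjusted p = 8.071e-12), number 14 by size of rise. It was 0.13 in proliferation (95% interval -0.26 to 0.52, edgeR adjusted p = 0.5839) and 0.35 at 24 h (-0.04 to 0.75, edgeR adjusted p = 0.1899), which did not pass the test. The coculture effect on IFIH1 was larger at 72 h than at 24 h by a log2 of 2.05 ± 0.277 (edgeR adjusted p = 1.778e-06) and larger than in proliferation by 2.27 ± 0.275 (3.661e-08). For DHX58 the same 2 changes of effect were 1.72 ± 0.267 (edgeR adjusted p = 1.418e-05) and 1.08 ± 0.272 (0.001082).

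Within a library, the log2 ratio of IFIH1 to DHX58 differed by -1.28 between coculture and monoculture in proliferation, with no overlap between the 4 libraries of each culture. The ratio differed by -0.38 at 24 h and -0.05 at 72 h, with overlap. This pair and the other ratios below were picked after the levels were known, so they restate the levels above and are given as descriptions without a test.

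MAVS, the adaptor that both signalling sensors of the family activate, differed little between cultures and lay at 11.7 to 20.7 CPM over all libraries. Its levels were 16.6 to 18.1 CPM in proliferation, 11.7 to 16.3 CPM at 24 h and 17.7 to 18.1 CPM at 72 h in monoculture, against 16.9 to 20.7, 14.2 to 16.3 and 18.5 to 19.7 CPM in coculture. The coculture effect was a log2 of 0.09 in proliferation (95% interval -0.06 to 0.24, edgeR adjusted p = 0.2989), 0.10 at 24 h (-0.06 to 0.26, edgeR adjusted p = 0.3866) and 0.09 at 72 h (-0.07 to 0.24, edgeR adjusted p = 0.3525). At 72 h the 4 coculture libraries lay above the 4 monoculture libraries, though the difference did not pass the test. With scaling by library size alone it did, at a log2 of 0.22 (edgeR adjusted p = 0.02535).

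MAVS was called between times and not between cultures. It fell from proliferation to 24 h by 0.27 ± 0.0769 on the log2 scale in monoculture (edgeR adjusted p = 0.00294) and by 0.26 ± 0.0758 in coculture (0.006294), and rose from 24 h to 72 h by 0.32 ± 0.0777 (0.0009134) and 0.31 ± 0.0757 (0.001228). With scaling by library size alone the rise in monoculture missed the threshold (0.19, edgeR adjusted p = 0.05435). The fall in coculture did not pass the test in lane 6 alone (log2 -0.22, edgeR adjusted p = 0.0965) or with lane as a term (-0.23, 0.06031). The log2 ratio of DHX58 to MAVS was higher in coculture by 1.31 in proliferation, 0.63 at 24 h and 2.40 at 72 h, without overlap at any time.

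IRF3, which MAVS signalling activates by phosphorylation, was changed little in level. Its lowest group was proliferating monoculture, at 59.8, 53.7, 59.7 and 62.0 CPM. The other 5 groups overlapped their neighbours in the order of means, from monoculture 24 h at 75.6 ± 2.62 CPM (SD, n = 4) through coculture proliferation at 71.6 ± 2.29 to coculture 72 h at 68.7 ± 2.95. Monoculture ranged over 73.2 to 78.7 CPM at 24 h and 64.6 to 71.5 CPM at 72 h, and coculture over 65.8 to 70.9 and 66.8 to 73.04 CPM.

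The coculture effect on IRF3 was a log2 of 0.28 ± 0.0463 in proliferation (edgeR adjusted p = 6.064e-06), where coculture replicates held 72.9, 70.6, 73.9 and 68.8 CPM. At 24 h it was -0.13 ± 0.0457 (edgeR adjusted p = 0.04304), a call lost without any 1 of the 4 coculture libraries or monoculture replicate 3 or 4 (0.05057 to 0.137), in lane 6 alone (0.06583) and in the authors' deposited table (adjusted p = 0.06852). At 72 h it was -0.01 (95% interval -0.10 to 0.08, edgeR adjusted p = 0.8713). The effect was smaller than in proliferation by a log2 of -0.41 ± 0.0651 at 24 h (edgeR adjusted p = 7.128e-06) and -0.29 ± 0.0655 at 72 h (0.0003065), the latter lost with scaling by library size alone (-0.09, 0.3084). In monoculture IRF3 rose by a log2 of 0.36 ± 0.0461 from proliferation to 24 h (edgeR adjusted p = 4.428e-08). Its fall from 24 h to 72 h there, 0.13 ± 0.0460 (edgeR adjusted p = 0.01901), was lost without monoculture 24 h replicate 3 (0.06481) or 72 h replicate 3 (0.08035), without the 4 libraries rich in ribosomal RNA (0.113) and with only the groups compared in the model (0.06153).

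**Figure D1:**
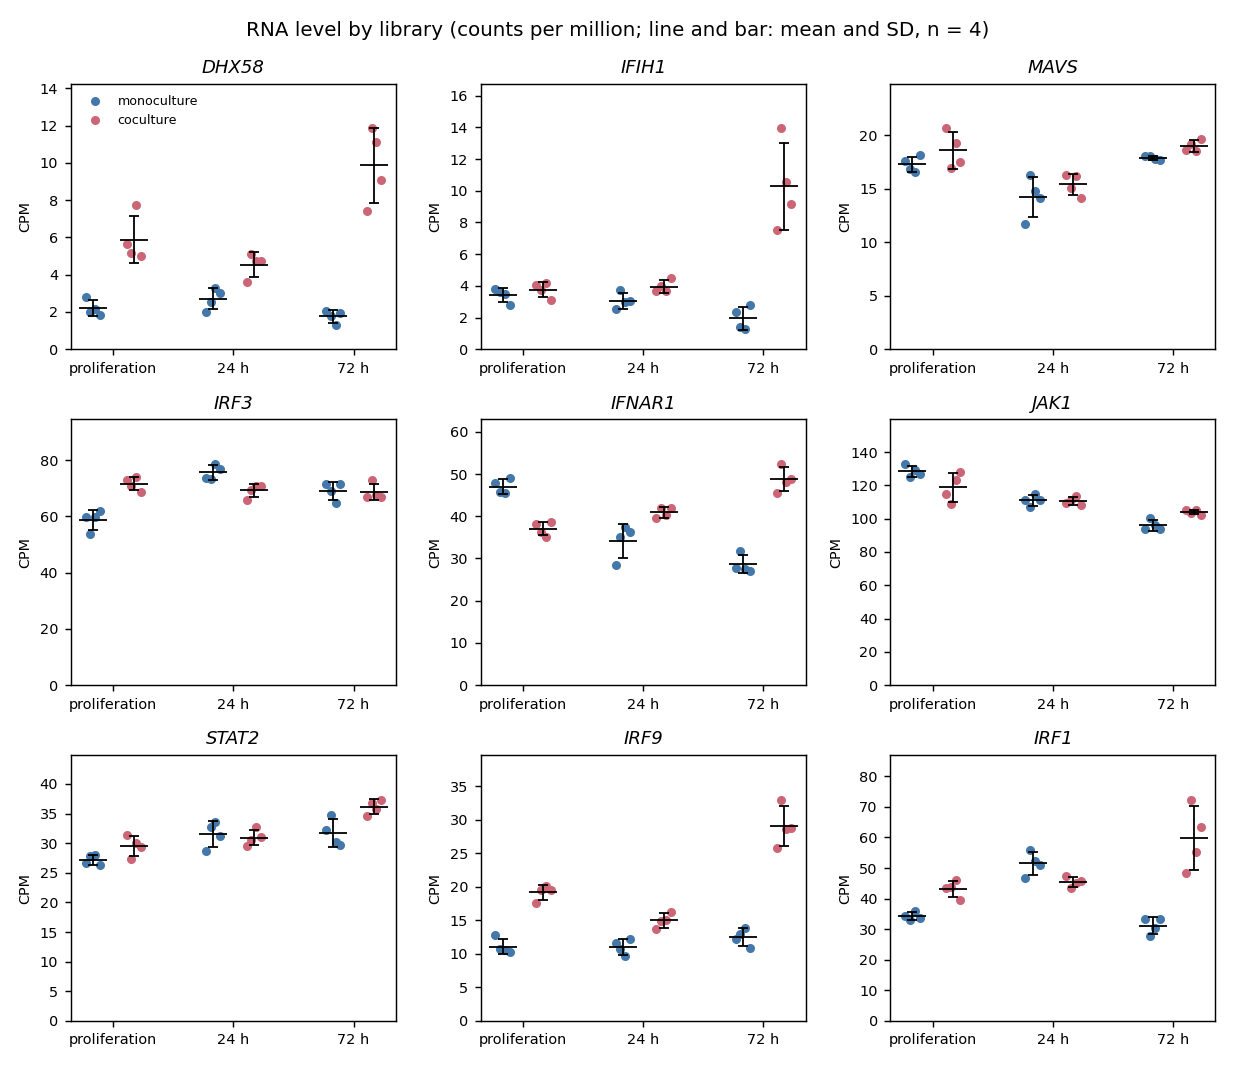
Level of each of the 9 genes in CPM (vertical axis, from 0, own scale per gene) in the 6 groups, with 1 point per library, a bar at the group mean and the SD over 4 libraries; monoculture and coculture are drawn side by side at each time. DHX58, IFIH1, IRF9 and IRF1 reach their highest group mean in coculture at 72 h (9.88, 10.3, 29.1 and 59.9 CPM). So do MAVS, IFNAR1 and STAT2 (19.0, 48.8 and 36.1 CPM), while MAVS and JAK1 differ little between cultures.

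IFNAR1, a chain of the type I interferon receptor, changed direction: it was lower in coculture in proliferation and higher at 24 h and 72 h. Monoculture replicates 1 to 4 held 47.8, 45.8, 45.5 and 49.1 CPM in proliferation, 28.3, 35.0, 37.4 and 36.2 CPM at 24 h, and 27.8, 31.8, 27.6 and 27.1 CPM at 72 h. Coculture replicates held 38.2, 36.3, 35.2 and 38.6 CPM in proliferation, 39.5, 41.9, 40.2 and 42.0 CPM at 24 h, and 45.6, 52.5, 48.2 and 48.9 CPM at 72 h. The cultures did not overlap at any time.

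The IFNAR1 effect was a log2 of -0.34 ± 0.0618 in proliferation (edgeR adjusted p = 2.365e-05), 0.25 ± 0.0629 at 24 h (0.00325) and 0.77 ± 0.0641 at 72 h (2.49e-11). It was larger at 24 h than in proliferation by 0.60 ± 0.0882 (edgeR adjusted p = 2.427e-06), at 72 h than at 24 h by 0.51 ± 0.0898 (7.573e-05) and at 72 h than in proliferation by 1.11 ± 0.0891 (1.701e-11). Within monoculture IFNAR1 fell by 0.46 ± 0.0622 to 24 h (edgeR adjusted p = 1.668e-07) and by a further 0.26 ± 0.0657 to 72 h (0.001255). Within coculture it rose by 0.25 ± 0.0612 from 24 h to 72 h (edgeR adjusted p = 0.0009801).

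JAK1, the kinase bound to IFNAR2 and shared with many cytokine receptors, differed far less. It was at 125 to 133, 107 to 115 and 93.7 to 101 CPM in monoculture and at 109 to 128, 108 to 114 and 103 to 105 CPM in coculture, in order of time. Its coculture effect was -0.12 ± 0.0427 in proliferation (edgeR adjusted p = 0.02112), with overlapping libraries, -0.00 at 24 h (95% interval -0.09 to 0.08, edgeR adjusted p = 0.9509) and 0.11 ± 0.0434 at 72 h (0.0305). The proliferation call was lost without coculture replicate 1 (log2 -0.10, edgeR adjusted p = 0.06882) or 2 (-0.07, 0.1462) or monoculture replicate 1 (-0.10, 0.07341). The 72 h call was lost with lane as a term (log2 0.11, edgeR adjusted p = 0.3132), without the 4 libraries rich in ribosomal RNA (0.09, 0.1836) and without coculture replicate 1 or 3 or monoculture replicate 1 or 4 (edgeR adjusted p of 0.06108 to 0.0817), and the authors' deposited table gives it an adjusted p of 0.05728.

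JAK1 fell with time in monoculture, by 0.21 ± 0.0427 on the log2 scale to 24 h (edgeR adjusted p = 6.785e-05) and by 0.21 ± 0.0433 from 24 h to 72 h (0.000168). Its coculture effect was larger at 72 h than in proliferation by 0.23 ± 0.0609 (edgeR adjusted p = 0.001803). The log2 ratio of IFNAR1 to JAK1 differed between coculture and monoculture by -0.23 in proliferation, 0.27 at 24 h and 0.66 at 72 h, each without overlap between the cultures.

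STAT2 and IRF9 are partners in the complex that binds interferon-stimulated response elements. IRF9 supplies the DNA binding of that complex. Monoculture replicates 1 to 4 held IRF9 at 12.8, 10.7, 10.6 and 10.3 CPM in proliferation, 11.7, 10.7, 9.63 and 12.2 CPM at 24 h, and 12.3, 13.03, 13.9 and 10.9 CPM at 72 h. Coculture replicates held 17.5, 19.5, 20.2 and 19.5 CPM in proliferation, 13.7, 14.9, 15.1 and 16.3 CPM at 24 h, and 25.8, 33.0, 28.6 and 28.8 CPM at 72 h. The cultures did not overlap at any time, and the 3 monoculture groups overlapped each other.

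IRF9 rose by a log2 of 0.80 ± 0.0877 in proliferation (edgeR adjusted p = 8.314e-09), 0.45 ± 0.0906 at 24 h (0.0003866) and 1.21 ± 0.0844 at 72 h (5.278e-13). The effect was smaller at 24 h than in proliferation by a log2 of -0.34 ± 0.127 (edgeR adjusted p = 0.0243), a call lost with scaling by library size alone (-0.28, 0.08347) and without coculture 24 h replicate 1, monoculture 24 h replicate 4 or monoculture proliferation replicate 4 (edgeR adjusted p of 0.05274, 0.0615 and 0.05197). It was larger at 72 h than at 24 h by 0.76 ± 0.124 (edgeR adjusted p = 3.147e-05). It was also larger at 72 h than in proliferation, by 0.42 ± 0.123 (edgeR adjusted p = 0.004297), which did not pass the test with lane as a term (0.28, 0.1816).

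STAT2, the subunit with the activation domain, was at 26.4 to 28.0, 28.7 to 33.6 and 29.6 to 34.7 CPM in monoculture and at 27.3 to 31.5, 29.5 to 32.7 and 34.5 to 37.4 CPM in coculture. Neighbouring groups overlapped along the whole order of means. Its coculture effect was a log2 of 0.11 in proliferation (95% interval -0.01 to 0.23, edgeR adjusted p = 0.107), -0.03 at 24 h (-0.15 to 0.08, 0.7191) and 0.18 ± 0.0566 at 72 h (edgeR adjusted p = 0.00746). The 72 h call was lost with lane as a term (log2 0.10, edgeR adjusted p = 0.4797) and without the 4 libraries rich in ribosomal RNA (0.13, 0.1415), and the proliferation value passed without coculture replicate 2 (0.15, 0.03362). In monoculture STAT2 rose by 0.22 ± 0.0574 from proliferation to 24 h (edgeR adjusted p = 0.001366), which scaling by library size alone took away (0.03, 0.7274).

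The log2 ratio of IRF9 to STAT2 was higher in coculture by 0.68 in proliferation, 0.47 at 24 h and 1.03 at 72 h, with no overlap at any time. In monoculture the ratio was at most -1.06 in any library, and in coculture at 72 h it was between -0.42 and -0.16.

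IRF1, a transcription factor that interferon gamma and inflammatory cytokines induce, was higher in coculture in proliferation and at 72 h and did not pass the test at 24 h. Monoculture replicates 1 to 4 held 34.5, 32.9, 35.9 and 33.8 CPM in proliferation, 46.8, 55.9, 52.4 and 51.0 CPM at 24 h, and 33.3, 27.7, 30.4 and 33.3 CPM at 72 h. Coculture replicates held 43.3, 43.7, 46.1 and 39.6 CPM in proliferation, 47.3, 43.3, 45.2 and 45.7 CPM at 24 h, and 48.3, 72.4, 55.3 and 63.5 CPM at 72 h. Monoculture at 24 h lay above monoculture at both other times without overlap, whereas coculture at 24 h overlapped coculture in proliferation.

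IRF1 rose with coculture by a log2 of 0.33 ± 0.0819 in proliferation (edgeR adjusted p = 0.0008938) and 0.94 ± 0.0819 at 72 h (5.803e-11). At 24 h it was -0.19 (95% interval -0.35 to -0.03), which did not pass the test over all genes (edgeR adjusted p = 0.08357). It passed without monoculture 24 h replicate 1 (-0.23, edgeR adjusted p = 0.04439), with only the groups compared in the model (-0.19, 0.01806), and in the authors' deposited table (adjusted p = 0.0197). The IRF1 effect at 24 h was smaller than in proliferation by a log2 of -0.52 ± 0.114 (edgeR adjusted p = 0.0003619), and that at 72 h was larger than at 24 h by 1.13 ± 0.114 (1.06e-08) and than in proliferation by 0.61 ± 0.116 (4.221e-05).

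In monoculture IRF1 rose by 0.59 ± 0.0808 to 24 h (edgeR adjusted p = 1.551e-07) and fell by 0.73 ± 0.0825 from 24 h to 72 h (8.037e-09). In coculture it did not pass the test to 24 h (log2 0.07, edgeR adjusted p = 0.4918) and rose by 0.40 ± 0.0783 from 24 h to 72 h (8.079e-05). The overlapping gene ENSBTAG00000058143 had a coculture effect of 1.147 at 72 h (edgeR adjusted p = 2.392e-05) and held 3.53 against 1.59 CPM, and reads it may share with IRF1 were not separated. The log2 ratio of IRF1 to IRF3 was higher in coculture by 0.94 at 72 h without overlap, and differed by 0.05 in proliferation and -0.05 at 24 h with overlap.

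**Figure D2:**
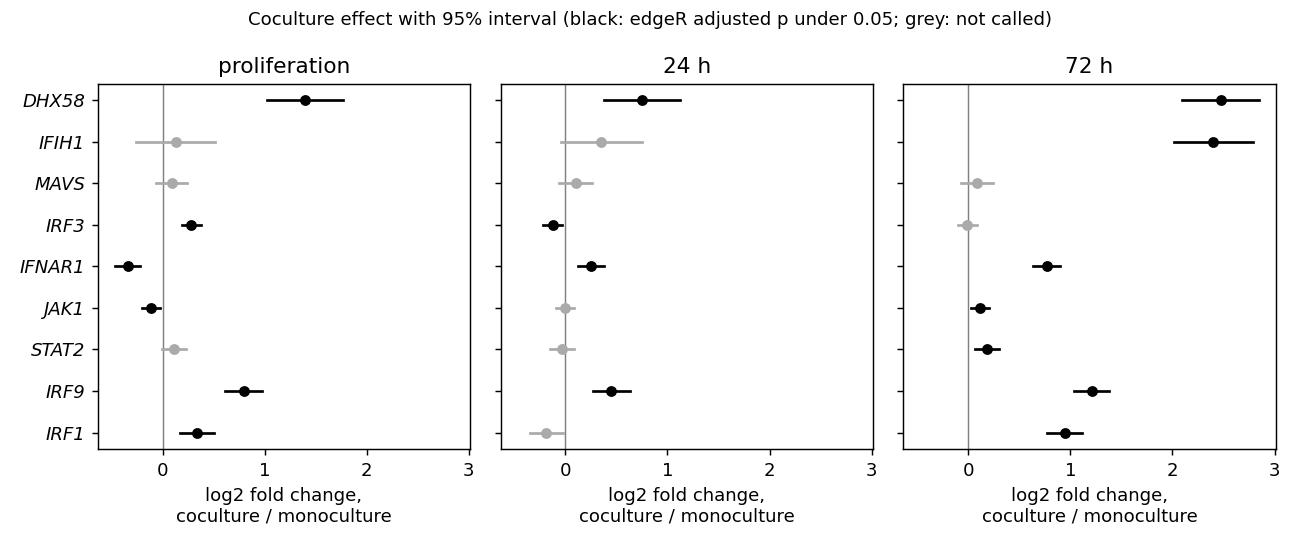
Log2 fold change of coculture over monoculture (horizontal axis) for the 9 genes at each time, with 95% intervals from the edgeR fit; black marks an adjusted p under 0.05 and grey a value that did not pass. At 72 h 7 of 9 genes lie to the right of 0 in black, from JAK1 at 0.11 to DHX58 at 2.47. Among them JAK1 and STAT2 lost the call with lane as a term and without the libraries rich in ribosomal RNA.

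Counted together, 4 of the 9 genes rose and 2 fell with coculture in proliferation, where 30.3% of all genes tested rose and 28.7% fell. At 24 h 3 rose and 1 fell, against 11.5% and 12.2% of all genes. At 72 h 7 rose and 0 fell, against 25.1% and 25.4%. Of these 7, JAK1 and STAT2 lost the call with lane as a term (edgeR adjusted p = 0.3132 and 0.4797). Both were also lost without the 4 libraries rich in ribosomal RNA (edgeR adjusted p = 0.1836 and 0.1415). With lane as a term the calls over all genes fell too, from 6029 to 3402. The median log2 fold change of the 9 genes was 0.13, 0.10 and 0.77 in order of time, and that of all genes was 0.00, -0.00 and -0.00. The median size, sign aside, was 0.28, 0.19 and 0.77 for the 9 genes and 0.24, 0.12 and 0.20 for all genes. In proliferation the 9 genes were thus mixed, and at 72 h those that passed lay in 1 direction.

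The change of the coculture effect from proliferation to 24 h was upward for 1 of 9 genes and downward for 4 (24.3% and 26.2% of all genes). From 24 h to 72 h it was upward for 6 and downward for 0 (12% and 11.7%). From proliferation to 72 h it was upward for 6 and downward for 1 (31.3% and 31.0%). These comparisons share samples with each other and with those above. STAT2, the smallest of the 6 from 24 h to 72 h at 0.22 ± 0.0802 (edgeR adjusted p = 0.04667), was lost in 16 of 25 alternatives. They include leaving out coculture 24 h replicate 1, 2 or 4, coculture 72 h replicate 2, 3 or 4, monoculture 24 h replicate 2, 3 or 4, or monoculture 72 h replicate 1, 3 or 4 (edgeR adjusted p of 0.05711 to 0.1009).

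Over time alone, monoculture cells had 3 of the 9 genes higher and 3 lower at 24 h than in proliferation (34.3% and 34.2% of all genes). From 24 h to 72 h 1 was higher and 6 were lower (27.3% and 26.6%), among them DHX58 by 0.61 ± 0.220 (edgeR adjusted p = 0.01967) and IFIH1 by 0.68 ± 0.223 (0.01161) on the log2 scale. Both sensor calls were lost without monoculture 72 h replicate 3 (edgeR adjusted p = 0.07222 and 0.05136). The DHX58 call was also lost without monoculture 24 h replicate 3 (edgeR adjusted p = 0.07488) and without the 4 libraries rich in ribosomal RNA (0.0888), and the IFIH1 call without monoculture 24 h replicate 2 (0.06176) or 72 h replicate 2 (0.05404). Without monoculture 72 h replicate 3 the count lower in that interval was 3. In coculture 0 were higher and 2 lower at 24 h (21.0% and 22.2%), namely MAVS and IRF9, which fell by 0.35 ± 0.0841 (0.001156).

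From 24 h to 72 h coculture cells had 7 of 9 higher and 0 lower (24.4% and 23.8%). The rises were 1.37 ± 0.165 for IFIH1 (edgeR adjusted p = 2.994e-08), 1.11 ± 0.153 for DHX58 (3.659e-07) and 0.95 ± 0.0810 for IRF9 (2.299e-11) on the log2 scale. STAT2 rose by 0.23 ± 0.0562 (edgeR adjusted p = 0.001324), with MAVS, IFNAR1 and IRF1 as given above. Between these times the monoculture libraries overlapped for both sensors and the coculture libraries did not.

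Lane moved with culture at 72 h, so its share was estimated from the coculture 24 h group, the only group split between lanes. With lane as a term the 72 h effects were 2.35 ± 0.310 for DHX58 (edgeR adjusted p = 1.019e-06), 2.29 ± 0.335 for IFIH1 (4.821e-06) and 1.08 ± 0.149 for IRF9 (2.296e-06) on the log2 scale. IRF1 was at 0.94 ± 0.141 (edgeR adjusted p = 7.481e-06) and IFNAR1 at 0.76 ± 0.110 (4.969e-06). At 24 h in lane 6 alone, with coculture replicates 1 and 2, the effects were 0.68 ± 0.217 for DHX58 (edgeR adjusted p = 0.03338), 0.38 ± 0.111 for IRF9 (0.02132) and 0.25 ± 0.0796 for IFNAR1 (0.03641). At 72 h the 5 genes kept direction and call with lane as a term. Lane 6 alone could not be run there, since no coculture 72 h library was in that lane. At 24 h the 3 genes kept both in lane 6 alone and with lane as a term.

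The 4 coculture libraries at 72 h kept a similar order in several of the genes. Replicate 2 was the highest of the 4 libraries for 6 of the 9 genes (DHX58, IFIH1, IRF3, IFNAR1, IRF9 and IRF1), and replicate 1 was the lowest for 6. The log2 distance from the group mean was -0.39 in replicate 1 and 0.29 in replicate 2 for DHX58, -0.41 and 0.47 for IFIH1, -0.17 and 0.19 for IRF9, and -0.29 and 0.29 for IRF1. The coefficient of variation there was 20.5% for DHX58 and 26.6% for IFIH1, within the ranges of the other groups of each gene (14.4 to 21.6% and 10.1 to 37.4%). That of IRF9, 10.3%, also lay within the range of its other groups (5.94 to 10.4%). For IRF1 it was 17.4%, above every other group of that gene (3.60 to 8.67%). Replicate 1 also held 2.239% nuclear ribosomal RNA, the most of its group, and the part of that in its lower levels was not tested. Without the 4 libraries rich in ribosomal RNA, this one included, the 72 h effects were 2.46 for DHX58, 2.56 for IFIH1, 1.25 for IRF9, 1.06 for IRF1 and 0.74 for IFNAR1.

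**Figure D3:**
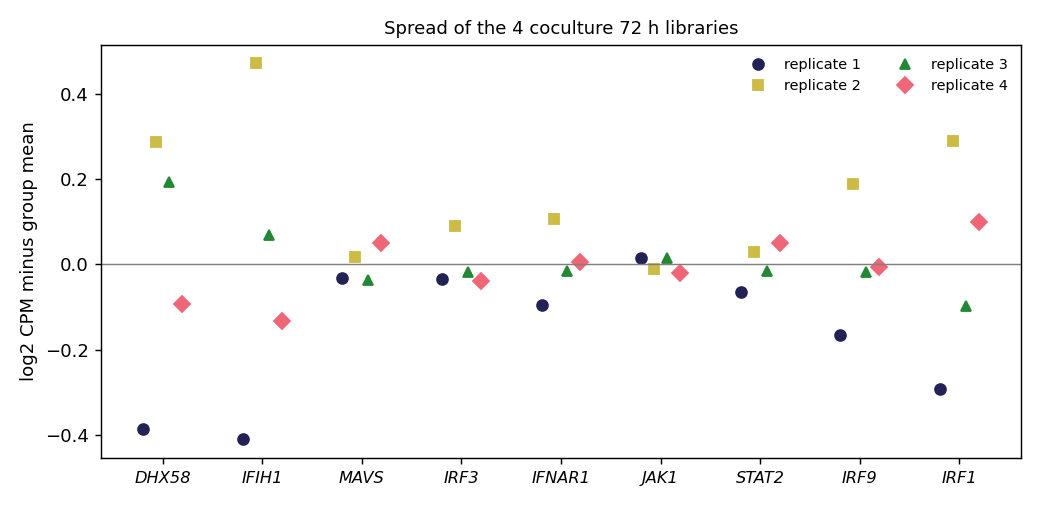
Log2 CPM of each coculture 72 h library minus the mean of the 4 (vertical axis) for each of the 9 genes; symbols mark replicates 1 to 4. Replicate 1 lies lowest and replicate 2 highest for DHX58, IFIH1, IFNAR1, IRF9 and IRF1, while MAVS, JAK1 and STAT2 lie close to 0 in all 4.

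Across the 24 libraries DHX58 was most like IRF9 among the other 8 genes (Pearson r of log2 CPM 0.887), then IFIH1 (0.870), and IFIH1 was like IRF1 (0.783). These points share the groups, the libraries and the scaling. Among 9356 genes with a single symbol and at least 5 CPM on average, those most like DHX58 were ADAR, an RNA-editing deaminase (0.934), UBA7, the enzyme that activates ISG15 (0.923), and PFKL, a glycolytic enzyme (0.921). For IFIH1 they were the ubiquitin ligase DTX3L (0.936), ZNFX1 (0.912) and PDGFRA, a growth factor receptor and fibroblast marker (0.901). For IRF9 they were the interferon-induced GTPase MX1 (0.948), AK4 (0.942) and the glycolytic enzyme GAPDH (0.934). For IRF1 they were COTL1 (0.880), the immunoproteasome subunit PSMB8 (0.874) and the proteasome activator PSME2 (0.868).

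The genes that varied less had other neighbours. MAVS was most like RALGDS (0.889), IRF3 like RIPOR1 (0.883), IFNAR1 like the endoplasmic reticulum stress sensor ATF6 (0.935), JAK1 like the nuclear exporter XPO1 (0.948) and STAT2 like the transporter ABCC1 (0.909). Each r is over the same 24 libraries.

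The rest of the pathway was read from 7 lists of 118 symbols, with 96 genes listed, beside the 9. In proliferation 37 (38.5%) were higher and 32 (33.3%) lower with coculture. At 24 h 23 (24.0%) and 4 (4.17%) were, and at 72 h 46 (47.9%) and 13 (13.5%). Of all genes 30.3% were higher and 28.7% lower in proliferation, 11.5% and 12.2% at 24 h, and 25.1% and 25.4% at 72 h. Each list below is to be read beside these shares of all genes. Their median log2 fold changes were 0.07, 0.06 and 0.13. At 24 h the higher calls fell to 14 in lane 6 alone and 15 with lane as a term, while the calls over all genes in both directions fell from 2836 to 1746 and 1977. At 72 h the lower calls fell to 5 with lane as a term, while those over all genes fell from 3034 to 1644, and to 8 without coculture replicate 4.

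Of 20 other sensors and sensor cofactors, 2 were higher and 9 lower in proliferation, 6 and 1 at 24 h, and 13 and 1 at 72 h. As shares of the list these are 10% and 45%, 30% and 5%, and 65% and 5%. RIGI, the third helicase of the family, had log2 effects of 0.24 (edgeR adjusted p = 0.06399), 0.46 (0.003856) and 1.26 (6.096e-11). EIF2AK2, the kinase PKR that stops translation on double-stranded RNA, rose by 0.73 (edgeR adjusted p = 3.154e-05) at 24 h and 1.30 (2e-10) at 72 h. TLR3, the endosomal double-stranded RNA receptor, fell by 0.45 in proliferation (edgeR adjusted p = 0.0001303) and 0.26 at 24 h (0.03499). PRKRA, an activator of that kinase, fell by 0.73 in proliferation (edgeR adjusted p = 7.74e-09) and 0.44 at 72 h (0.0002047). The 3 helicases of the family thus each rose at 72 h, and in proliferation DHX58 passed the test while RIGI and IFIH1 did not.

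Of 21 adaptors and kinases downstream of the sensors, 9 were higher and 8 lower in proliferation, 2 and 2 at 24 h, and 8 and 3 at 72 h. TBK1, the kinase that phosphorylates IRF3, fell by 0.55 in proliferation (edgeR adjusted p = 1.119e-08), and so did the autophagy adaptor TAX1BP1, by 0.56 (1.519e-12). At 24 h TRAF2 (-0.38, edgeR adjusted p = 0.0006297) and TBKBP1 (-0.25, 0.001121) fell. At 72 h TRAF5 (-0.31, edgeR adjusted p = 0.002079) and TBKBP1 (-0.23, 0.0005039) fell. These are 42.9% and 38.1% of the list in proliferation, 9.52% each at 24 h, close to the shares of all genes, and 38.1% and 14.3% at 72 h, with a median log2 of 0.11 there.

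Of 6 other IRF family genes, 3 were higher and 0 lower in proliferation, 2 and 1 at 24 h, and 2 and 1 at 72 h. As shares of this short list these are 50% and 0% in proliferation and 33.3% and 16.7% at each later time. IRF7, the factor that amplifies type I interferon, had log2 effects of 0.68 (edgeR adjusted p = 0.001825), 0.45 (0.07797) and 1.93 (1.117e-09) in order of time. IRF5 fell by 0.45 at 24 h (edgeR adjusted p = 0.003249) and IRF2BP2 by 0.41 at 72 h (6.409e-09). Of 11 interferon genes on the list only IFNB1 was listed, at group means of 1.54 to 3.84 CPM. Its coculture effects were 0.25 (edgeR adjusted p = 0.4932), 0.02 (0.9596) and -0.27 (0.3644), and none passed the test. Over time in monoculture it was higher at 24 h than in proliferation, by a log2 of 0.85 (called by edgeR). In coculture it moved the same way by 0.62, which was not called. The change of its coculture effect between these times, -0.22, was not called either.

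Of 6 other interferon receptors and Janus kinases, 2 were higher and 2 lower in proliferation, 3 and 0 at 24 h, and 5 and 0 at 72 h. These are 33.3% each in proliferation, 50% and 0% at 24 h, and 83.3% and 0% at 72 h. IFNAR2, the partner chain of IFNAR1, rose by 1.09 (edgeR adjusted p = 1.262e-10) there. Of 5 other STAT genes, 4 (80%) were higher and 0 lower in proliferation, 2 (40%) and 0 at 24 h, and 4 (80%) and 0 at 72 h. STAT3, which many cytokine receptors activate, rose by 0.45 at 24 h (edgeR adjusted p = 3.382e-10).

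Of 37 negative regulators, 17 were higher and 13 lower in proliferation, 8 and 0 at 24 h, and 14 and 8 at 72 h. As shares of the list these are 45.9% and 35.1%, 21.6% and 0%, and 37.8% and 21.6%. USP18, which removes ISG15 and blocks the receptor, rose at every time, by 0.80 (edgeR adjusted p = 0.0005604), 0.88 (0.001014) and 1.59 (4.472e-09). SOCS3, an inhibitor of cytokine receptors, rose by 1.10 in proliferation (edgeR adjusted p = 1.912e-10) and 0.56 at 24 h (0.0004872). SOCS2 (0.82, edgeR adjusted p = 2.138e-07) and CISH (0.61, 0.0004329) of the same family also rose in proliferation, where SOCS5 (-0.49, 3.991e-08) and the deubiquitinase CYLD (-0.46, 2.951e-06) fell.

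SOCS1, which inhibits Janus kinases, went from a rise of 1.41 in proliferation (edgeR adjusted p = 0.0003873) to a fall of 0.72 at 72 h (0.006822), at low levels of 1.46 against 0.547 CPM in proliferation. RNF125, a ubiquitin ligase for the sensors, rose by 0.54 at 24 h (edgeR adjusted p = 0.04645). TNFAIP3, a ubiquitin-editing brake on NF-kB, rose by 1.62 at 72 h (edgeR adjusted p = 9.095e-09), where the ubiquitin ligase RNF5 fell by 0.21 (0.006913). The brakes of the pathway were thus called in both directions in proliferation and at 72 h. At 72 h 37.8% were higher and 21.6% lower, against 25.1% and 25.4% of all genes. At 24 h the calls lay in 1 direction, with 21.6% higher and 0% lower, against 11.5% and 12.2% of all genes.

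Of 39 interferon-induced effector genes looked for, 20 were listed, and the others have no value here. Of the 20 listed, 8 (40%) were higher and 6 (30%) lower in proliferation and 10 (50%) and 0 at 24 h. At 72 h 19 (95%) were higher and 0 lower, with a median log2 of 0.94. The gene not called there was SAMHD1 (-0.08, edgeR adjusted p = 0.4464), named after its value was seen. Summed over the 20 genes the level at 72 h was 992 to 1171 CPM in coculture and 554 to 594 CPM in monoculture. At 24 h it was 609 to 699 CPM in coculture and 534 to 558 CPM in monoculture, without overlap. In proliferation the sums overlapped, at 667 to 695 and 674 to 688 CPM. MX1 had log2 effects of 2.41 in proliferation (edgeR adjusted p = 4.478e-09), 2.52 at 24 h (1.775e-08) and 4.06 at 72 h (1.053e-15). Its 4 coculture libraries at 72 h stood in another order than those of DHX58 or IRF9, with replicate 4 lowest and replicate 3 highest.

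**Figure D4:**
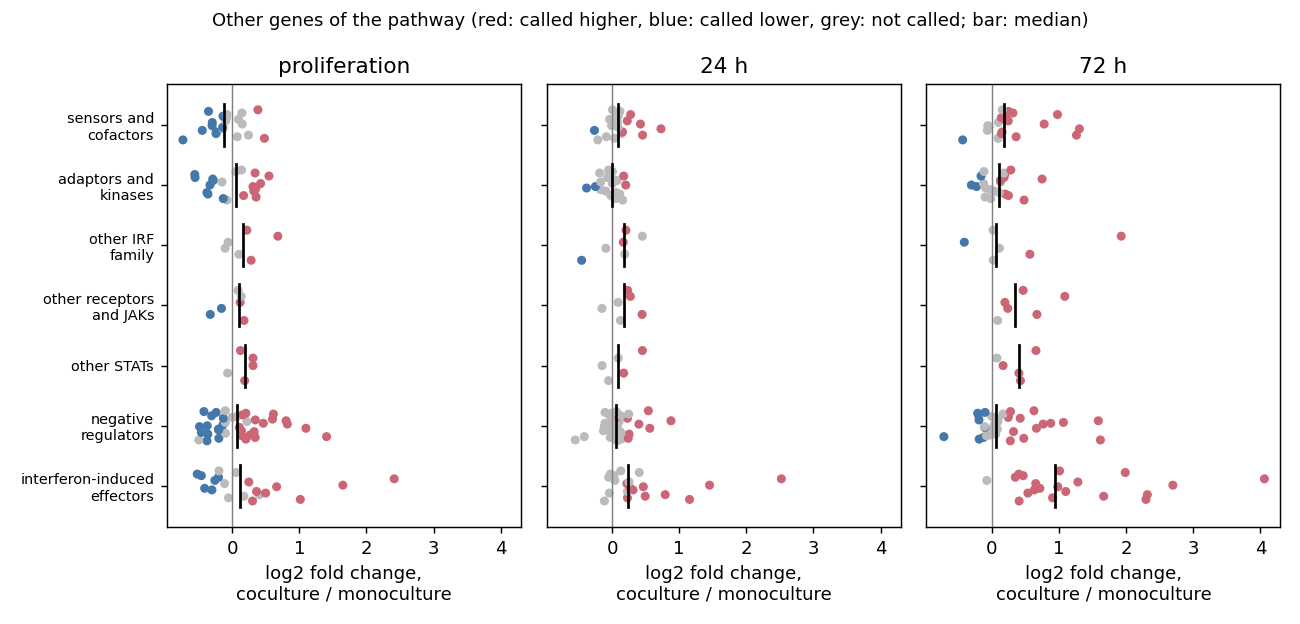
Log2 fold change of coculture over monoculture (horizontal axis) for the listed genes of 6 pathway lists and the interferon-induced effectors (vertical axis), 1 point per gene, with a panel per time. Red marks genes called higher, blue lower and grey not called by edgeR, and black bars mark each list's median. At 72 h 19 of 20 effectors are red, with a median of 0.94, and the negative regulators lie on both sides of 0, from SOCS1 at -0.72 to TNFAIP3 at 1.62.

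Marker levels of other cell types moved as follows beside these results, and their part in them was not tested. The 11 listed fibroblast markers summed to 68659 to 69983 CPM in coculture and 58475 to 62350 CPM in monoculture in proliferation, 90984 to 102130 against 94771 to 103938 CPM at 24 h, and 117855 to 122053 against 123803 to 141724 CPM at 72 h. Their sum was thus higher in coculture in proliferation, overlapping at 24 h and lower at 72 h. By gene, 6 were higher and 3 lower in proliferation, 3 and 3 at 24 h, and 4 and 3 at 72 h, with median log2 effects of 0.12, -0.01 and 0.08. PDGFRA had log2 effects of -0.14 (edgeR adjusted p = 0.03422), 0.47 (3.644e-07) and 1.38 (6.232e-18). The 7 listed satellite and myoblast markers summed to 295 to 305 CPM in coculture and 462 to 501 CPM in monoculture at 72 h, to 284 to 313 against 369 to 385 CPM at 24 h, and to 265 to 287 against 222 to 230 CPM in proliferation. Gene by gene, 2 of the 7 were higher and 4 lower at 72 h, 1 and 4 at 24 h, and 2 and 1 in proliferation. Their median log2 effects were -0.16, -0.40 and 0.13 in that order.

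Of 20 leukocyte markers only CD68 and FCER1G were listed, PTPRC was not, and their sum was 0.959 to 3.26 CPM over all libraries. Neither passed the test at any time. Of 10 endothelial markers only ERG and VWF were listed, with sums of 16.7 to 47.9 CPM. ERG had a coculture effect of 0.22 in proliferation (edgeR adjusted p = 0.04203) and -0.39 at 24 h (0.0004683), and VWF of 0.80 at 72 h (0.000207). Mitochondrially encoded messenger RNA took 1.765 to 1.913% of counts in coculture and 2.193 to 2.55% in monoculture at 72 h.

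In the authors' deposited tables of coculture against monoculture, 24 of the 27 values for the 9 genes had the same call as here, and the largest difference in log2 fold change was 0.00755. The 3 that differed are IRF3 and IRF1 at 24 h and JAK1 at 72 h, given above.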

How the data were processed

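The authors deposited gene counts, whole numbers of reads per gene, which may be rounded estimates; the submitters' processing notes name FastQC, STAR, RSEM and DESeq2 and no versions. The sources used here name no settings, annotation or build. Their deposited comparison tables, per the file headers, hold log2 fold changes, p-values and a mean normalised signal (not used) per time. Of 36 library columns, 24 match the labels; 12 match none and were not used.

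From these counts edgeR 4.0.16 (R 4.3.3) gave the results: TMM factors, 1 model with 6 group means (18 residual degrees of freedom), quasi-likelihood F tests in 10 comparisons, Benjamini-Hochberg adjustment over 11937 genes, calls at an adjusted p under 0.05. Each SE was derived from the fold change and its F value. Code was tested on simulated data. Alternatives were DESeq2 1.42.0, library sizes alone, other filters, lane, a replicate block and left-out libraries; the ratios between members were chosen after seeing the data.

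Members and lists were chosen with earlier results of these data known. All 9 genes are named; per time also the 6 largest rises and 6 largest falls called in the pathway lists, with IRF7, RIGI, MX1 and PDGFRA; 1 gene the rule names is not reported here. Replicate numbers did not pair samples. Promoter and protein sequences were not used here. Library totals of 11.54 to 34.96 M counts gave 20 to 205 counts for DHX58 and 20 to 241 for IFIH1, where counting error is largest, and 1268 to 4049 for JAK1.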

Additional observations from a re-analysis of the deposited data

Results flagged for a closer look

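In 2 of 54 groups of 4 libraries 1 value stood apart from the other 3 by Dixon's 95% criterion for 4 values, where chance alone flags about 1 in 20. IRF3 was at 73.0 CPM in coculture 72 h replicate 2, with the others at 66.8 to 67.7. IFNAR1 was at 31.8 CPM in monoculture 72 h replicate 2, with the others at 27.1 to 27.8.

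The size of the coculture effect differed between times for 18 of 27 interaction terms tested (edgeR, adjusted p under 0.05). From proliferation to 24 h it changed on the log2 scale by -0.65 for DHX58 (edgeR adjusted p = 0.04072), -0.41 for IRF3, 0.60 for IFNAR1, -0.34 for IRF9 and -0.52 for IRF1. The DHX58 term was lost in 8 of 25 alternatives, among them leaving out coculture 24 h replicate 1 (-0.56), coculture proliferation replicate 3 (-0.52), monoculture 24 h replicate 3 (-0.54) or 4 (-0.60), or monoculture proliferation replicate 2 (-0.61), 3 (-0.64) or 4 (-0.57). From 24 h to 72 h it changed by 1.72 for DHX58, 2.05 for IFIH1, 0.51 for IFNAR1, 0.22 for STAT2, 0.76 for IRF9 and 1.13 for IRF1. From proliferation to 72 h it changed by 1.08 for DHX58, 2.27 for IFIH1, -0.29 for IRF3, 1.11 for IFNAR1, 0.23 for JAK1, 0.42 for IRF9 and 0.61 for IRF1.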

How the results depend on the processing

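At 72 h DHX58 (log2 2.35 to 2.60), IFIH1 (2.22 to 2.58), IFNAR1 (0.73 to 0.90), IRF9 (1.08 to 1.34) and IRF1 (0.84 to 1.08) kept direction and call in every alternative run; DHX58 and IFIH1 have no value under a minimum mean of 5 CPM. Library sizes alone moved the median of all genes by 0.13 at 72 h, -0.07 in proliferation, -0.19 from proliferation to 24 h and -0.13 from 24 h to 72 h in monoculture, -0.13 from proliferation to 24 h in coculture, and 0.14 and 0.21 for the changes of effect to 72 h. The calls over all genes were then 4727 higher and 1550 lower at 72 h (2995 and 3034 with TMM) and 2670 and 4091 in proliferation (3613 and 3428). With lane as a term 3402 genes were called at 72 h, not 6029. In each case below the cause was not tested. With library sizes alone, IRF3 at 72 h turned to 0.12. Of the 9 genes, the effect change from proliferation to 24 h was then called higher for 2 and lower for 2, that to 72 h lower for 0, coculture 24 h against proliferation lower for 5, monoculture 72 h against 24 h higher for 0, and coculture at 24 h lower for 0. Over all genes the same 5 comparisons moved too. They then had 3319 higher and 2324 lower (2896 and 3130 with TMM), 2075 lower (3697), 4710 lower (2655), 1788 higher (3255) and 1350 lower (1460). Of the wider pathway, 24 genes were then higher in proliferation and 3 lower at 72 h. At 24 h the members called lower were also 0 in lane 6 alone, with the replicate block and without the libraries rich in ribosomal RNA, and 2 with only the groups compared. Wider pathway genes higher at 24 h were 14 in lane 6 alone and 15 with lane as a term, those lower were 8 at the 5 CPM minimum, and those lower at 72 h were 5 with lane as a term. For coculture at 24 h against proliferation, 1 gene was higher at the 5 CPM minimum and with only the groups compared, and 1 was lower in lane 6 alone and with lane as a term; for coculture 72 h against 24 h 1 was lower with only the groups compared. Leaving out 1 library gave ranges of 0 to 2 members lower at 24 h, 1 to 2 lower in proliferation, 1 to 2 higher and 2 to 4 lower for the effect change from proliferation to 24 h, 1 to 2 higher and 3 to 6 lower in monoculture from 24 h to 72 h, and 8 to 12 wider pathway genes lower at 72 h. JAK1 at 24 h ranged from -0.0233 to 0.0114 and IRF3 at 72 h from -0.0412 to 0.00695. Same-numbered samples correlated at -0.127 to 0.120, and 2 of 12 matched their own number best; with the replicate block 5927 genes were called at 72 h, and beside IRF3 at 24 h it ended only the STAT2 change of effect from 24 h to 72 h among the 9 genes (edgeR adjusted p = 0.05741).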
